A study of Mus musculus with 2 samples.

Results

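The heat shock protein and DnaJ genes form the main protein-folding machinery of the cell. They were chosen by symbol: every gene with a protein-coding transcript whose symbol starts with Hsp followed by a letter from a to h or a digit, or with Dnaja, Dnajb or Dnajc, pseudogene symbols left out. The rule found 75 genes among 22028 protein-coding genes and 55536 Ensembl genes in all. By family they were 3 Hsp90 genes, 11 Hsp70 genes, 4 Hsp110 and exchange factor genes, 2 chaperonin genes, 8 small heat shock protein genes, 4 DnaJA, 13 DnaJB and 28 DnaJC genes, and 2 other genes that share only the symbol pattern. The rule uses symbols and annotation alone.

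The RNA was total RNA of primary neutrophils, short-lived phagocytes of the innate immune system, taken from the spleens of male mice aged 65 days. The strain was B6CASTF1/J, the first-generation offspring of C57BL/6 females and CAST/EiJ males. There was 1 group, with no treatment and no second condition, and it held 2 libraries, replicate 1 and replicate 2, each made with 300 ng of input and ERCC spike-ins. The labels give both libraries 1 donor identifier, so separate animals are not shown, and the spread between the libraries may be technical. How the cells were isolated is not given in the sources used here.

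Heat shock proteins hold unfolded proteins and let them fold. Hsp70 proteins bind and release exposed peptide in a cycle driven by ATP, J domain proteins (the DnaJ families) bring them their clients and start ATP hydrolysis, and exchange factors reset the cycle. Hsp90 proteins act later on signalling clients, chaperonins enclose whole polypeptides, and small heat shock proteins hold clients without ATP. Some members are made at all times and others are induced by heat shock factor 1 at heat shock elements, or by the unfolded protein response of the endoplasmic reticulum at its own promoter element.

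Promoter sequences are shown first because the genes that differed most between the libraries carry near-identical ones, and because the strongly expressed Hspa5 and Hsp90b1 share a rare element. Windows from 250 bases before to 50 bases after each start were read from RefSeq on GRCm38.p6, the build of mm10, and 61 of the 75 genes had one, in 78 windows. The heat shock element was searched on both strands as GAA, TTC and GAA with 2 free bases after each of the first 2 units. Its 2-unit forms were GAANNTTC and TTCNNGAA, which read the same on both strands and which the full form contains. The endoplasmic reticulum stress element was searched on both strands as CCAAT and CCACG with 9 free bases between them. A match describes the letters and is no evidence of binding.

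Hspa1a and Hspa1b, the inducible Hsp70 genes, lie on the minus strand of chromosome 17. Their last 150 bases before the start, chr17:34972157-34972306 and chr17:34959239-34959388, had the same base at 149 of 150 positions. Capitals mark the GAANNTTC match, from -104 to -97 bases from the start in both genes.
Hspa1a: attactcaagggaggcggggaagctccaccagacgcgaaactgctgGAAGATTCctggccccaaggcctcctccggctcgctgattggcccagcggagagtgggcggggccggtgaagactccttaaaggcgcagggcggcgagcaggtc
Hspa1b: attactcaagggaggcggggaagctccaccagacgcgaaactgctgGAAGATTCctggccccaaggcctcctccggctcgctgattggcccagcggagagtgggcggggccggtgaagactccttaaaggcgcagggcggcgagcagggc

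The stress element was found in 3 member genes, Hspa5, Hsp90b1 and Dnajc3, against 0.119% of all 32851 windows. Hsp90b1 held 2 matches, 1 in each orientation (chr10:86705510-86705659, minus strand). Dnajc3 held 1 (chr14:118937782-118937931, plus strand), and Hspa5 held 1, shown with its nearest flanks (chr2:34772020-34772049, plus strand). Capitals mark the matches.
Hsp90b1: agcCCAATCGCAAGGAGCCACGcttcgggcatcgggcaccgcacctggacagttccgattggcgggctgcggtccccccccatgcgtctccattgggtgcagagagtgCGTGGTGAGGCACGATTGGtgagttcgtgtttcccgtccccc
Dnajc3: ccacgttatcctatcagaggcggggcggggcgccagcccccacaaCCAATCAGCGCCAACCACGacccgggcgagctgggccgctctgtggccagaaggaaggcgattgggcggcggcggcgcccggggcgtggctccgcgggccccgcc
Hspa5: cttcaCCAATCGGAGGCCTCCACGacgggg

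The full heat shock element was found in 6 of 78 member windows, which belong to 4 genes, against 0.603% of all windows. The genes were Hspd1 and Hspe1, which lie head to head on chromosome 1 and share the same letters on opposite strands, Hsph1 and Dnajb6. The site before Hspe1 (chr1:55088053-55088082, plus strand) held 2 overlapping matches, that of Dnajb6 (chr5:29735844-29735873, plus strand) lay before both RefSeq starts, and that of Hsph1 (chr5:149636279-149636308, minus strand) lay after the start. Capitals mark the matches.
Hspe1: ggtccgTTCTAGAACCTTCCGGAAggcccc
Dnajb6: agctccgaGAATCTTCCGGAAcgctagacc
Hsph1: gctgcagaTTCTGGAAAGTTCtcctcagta

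The form GAANNTTC alone was found in 14 of 61 member genes (23.0%) against 9.04% of all genes with a window, and TTCNNGAA in 6 (9.84%) against 9.60%. Besides the genes above, GAANNTTC was present in windows of Dnaja1, Dnaja4, Dnajc27, Dnajc5g, Hspb1, Hspb3, Hspb6 and Hspb8. That of Dnaja1 (chr4:40722333-40722362, plus strand) is shown because Dnaja1 was the highest J protein gene by the mean TPM used below, with the match in capitals.
Dnaja1: aaaagcctctaGAAAATTCtacgaggctcg

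Levels are deposited TPM of the gene tables, a unit scaled for transcript length and library size, given per library and as mean ± SD (n = 2). Replicate 1 held 18387963 and replicate 2 held 18090108 expected counts in total. The share of 7SL RNA was 43.8% of all TPM in replicate 1 and 31.6% in replicate 2, and protein-coding genes 32.8% and 45.4%, so the TPM of most genes was higher in replicate 2. All 14 listed neutrophil markers were at 1 TPM or more in both libraries, summing to 40612 TPM in replicate 1 and 80803 TPM in replicate 2. Of 43 markers of other lineages 17 reached 1 TPM in both, with a summed level of 204 and 324 TPM.

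Of the 75 genes, 52 (69.3%) stood at 1 TPM or more in both libraries, against 43.3% of all protein-coding genes. A count was found for 65 genes, 26 stood at 10 TPM or more in both libraries and 3 at 100 TPM or more. The median over all 75 was 5.74 ± 1.39 TPM, against 0.365 ± 0.0495 TPM over all protein-coding genes and 7.56 ± 1.03 TPM over the protein-coding genes with a summed count of 10 or more. Together the 75 genes held 1465 TPM in replicate 1 and 2038 TPM in replicate 2. As a share of all protein-coding TPM this was 0.446% and 0.449%. By kallisto TPM the share was 0.427% and 0.459%, and of expected counts it was 0.469% and 0.527%.

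**Figure D1:**
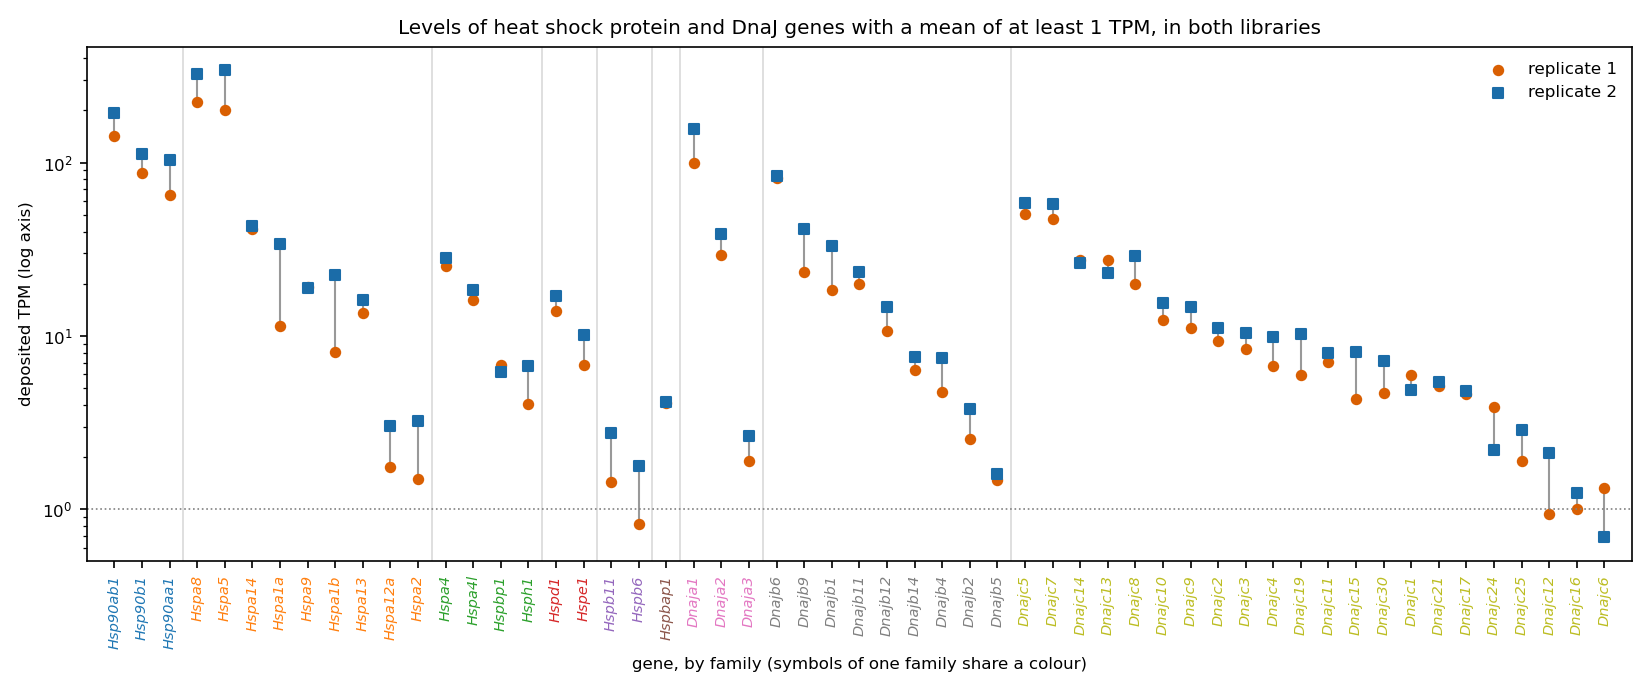
TPM of the 55 genes with a mean of at least 1 TPM, on a log axis and grouped by family, with a circle for replicate 1 and a square for replicate 2 joined by a line. Hspa8 and Hspa5 stand highest, and the widest gaps among genes above 10 TPM in replicate 2 are those of Hspa1a and Hspa1b.

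Hsp70 genes held the largest part of the summed TPM, 35.6% in replicate 1 and 39.5% in replicate 2. Hspa8, the constitutive Hsc70 of the cytosol (chr9:40800984-40810087, plus strand), stood at 223.75 TPM in replicate 1 and 325.29 TPM in replicate 2. Hspa5, the BiP chaperone of the endoplasmic reticulum (chr2:34771970-34777547, plus strand), stood at 200.4 and 340.05 TPM. By these values, from the RSEM tables described further on, their order was opposite in the libraries. By the authors' other quantification, kallisto, Hspa8 was the higher in both, at 218 and 453 TPM beside 166 and 312 TPM for Hspa5. Hspa8 made up 41.7% ± 1.83 of Hsp70 TPM and Hspa5 40.3% ± 2.64 by RSEM, and 48.1% ± 3.15 and 34.8% ± 0.145 by kallisto.

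The other Hsp70 genes were lower than these in both libraries. Hspa14, which works with ribosomes, stood at 42.0 ± 1.17 TPM, and Hspa9, the mitochondrial Hsp70 mortalin, at 19.0 ± 0.106 TPM. The inducible genes stood at 11.41 TPM in replicate 1 and 33.73 TPM in replicate 2 for Hspa1a (chr17:34969190-34972156, minus strand) and at 8.12 and 22.36 TPM for Hspa1b (chr17:34956436-34959238, minus strand). Both were low in replicate 1 and high in replicate 2. Hspa13 stood at 14.8 ± 1.83 TPM, Hspa12a at 2.39 ± 0.898 TPM and Hspa2, known from testis, at 2.37 ± 1.24 TPM. Hspa12b had 3 counts in replicate 1 and 1 in replicate 2, and Hspa1l, known from testis like Hspa2, had 1.06 and 3.14, too few to test.

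Hsp90 genes were all strongly expressed and made up 20.1% and 19.96% of the summed TPM. Hsp90ab1, the constitutive cytosolic form (chr17:45567775-45573271, minus strand), stood at 142.92 TPM in replicate 1 and 191.84 TPM in replicate 2. Hsp90b1, the GRP94 chaperone of the endoplasmic reticulum (chr10:86690209-86705509, minus strand), stood at 87.25 and 111.55 TPM, and Hsp90aa1, the inducible cytosolic form (chr12:110690605-110702728, minus strand), at 64.71 and 103.43 TPM. The level of Hsp90ab1 was the highest of the family in both libraries, and the ranges of Hsp90b1 and Hsp90aa1 overlapped.

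The helpers of Hsp70 were present at moderate levels. Hspa4 and Hspa4l, Hsp110 proteins that exchange nucleotide on Hsp70, stood at 26.7 ± 1.94 and 17.2 ± 1.499 TPM. Hspbp1, another exchange factor, stood at 6.52 ± 0.438 TPM and Hsph1, the third Hsp110, at 5.39 ± 1.88 TPM. The mitochondrial chaperonin Hspd1 (Hsp60) stood at 15.5 ± 2.23 TPM and its lid Hspe1 (Hsp10) at 8.44 ± 2.29 TPM.

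By RSEM, small heat shock protein genes were low or at 0. Hspb1, Hspb2, Hspb3, Hspb7 and Hspb8 had a count of 0 in both libraries. By counting error alone a count of 0 allows 3 counts, which would correspond to between 0.0515 (Hspb7) and 0.287 TPM (Hspb2). The deposited upper bounds of TPM reached 0.499 for Hspb1 in replicate 1 and 0.463 for Hspb2 in replicate 2. Kallisto gave Hspb1 0.312 TPM in replicate 1 and 0 in replicate 2. Of the 101-base windows of its protein-coding transcripts, 49.3% also occur in the pseudogene Hsp25-ps1. Hspb9 had 1 count. Hspb6 stood at 0.82 TPM in replicate 1 and 1.78 TPM in replicate 2. Hspb11, whose product is a subunit of intraflagellar transport, stood at 1.43 and 2.76 TPM and was the 1 gene of the family at 1 TPM or more in both libraries. Kallisto gave Hspb11 14.2 TPM in replicate 1 and 15.6 TPM in replicate 2, a difference described further on. Of the 2 genes that carry only the symbol pattern, Hspbap1 stood at 4.12 ± 0.0283 TPM and Hspg2, which encodes the matrix protein perlecan, at 0.170 ± 0.0990 TPM.

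By RSEM, J protein genes were led by 1 DnaJA gene. Dnaja1, a cytosolic partner of Hsp70 (chr4:40722150-40737149, plus strand), stood at 99.31 TPM in replicate 1 and 155.43 TPM in replicate 2. Most of this TPM was assigned to transcripts annotated as noncoding, as given further on. Dnaja2 followed at 34.2 ± 6.70 TPM, the mitochondrial Dnaja3 stood at 2.26 ± 0.523 TPM and Dnaja4 at 0.145 ± 0.00707 TPM. Dnaja1 was the highest of the 4 in each library, with ranges that did not overlap. By kallisto Dnaja1 stood at 76.9 TPM in replicate 1, below Dnajb6 at 79.6 TPM. In replicate 2 it stood at 126 TPM by kallisto, above Dnajb6 at 80.8 TPM.

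Among DnaJB genes, Dnajb6, a suppressor of protein aggregation (chr5:29735688-29818134, plus strand), stood at 81.85 TPM in replicate 1 and 83.3 TPM in replicate 2. Dnajb9, an endoplasmic reticulum J protein of the unfolded protein response, stood at 23.28 and 41.2 TPM, and Dnajb1, the inducible Hsp40, at 18.39 and 33.21 TPM. Dnajb11, a J protein partner of BiP, stood at 21.6 ± 2.50 TPM. The libraries were close for Dnajb6 and far apart for Dnajb9 and Dnajb1. Dnajb7, Dnajb8 and Dnajb13 had a count of 0 in both libraries.

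Of the 28 DnaJC genes, 20 stood at 1 TPM or more in both libraries. Dnajc5, the cysteine string protein of secretory vesicles, stood at 54.3 ± 5.50 TPM and Dnajc7, a partner of both Hsp70 and Hsp90, at 52.3 ± 7.38 TPM, and their ranges overlapped. Dnajc14 stood at 26.9 ± 0.735 TPM, the endosomal Dnajc13 at 25.3 ± 3.03 TPM and Dnajc8, found with spliceosomes, at 24.5 ± 6.29 TPM. Dnajc10, a reductase of the endoplasmic reticulum, stood at 14.0 ± 2.20 TPM, Dnajc9, a histone chaperone, at 12.9 ± 2.50 TPM and the ribosome-associated Dnajc2 at 10.2 ± 1.27 TPM. Dnajc5b and Dnajc5g, close relatives of Dnajc5, had a count of 0 in both libraries.

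The spread between the 2 libraries was read gene by gene on expected counts, since the TPM of every gene moves with the 7SL share. Rounded counts were compared with an exact two-sided binomial test given library sizes scaled by TMM (a trimmed mean over genes), and p was adjusted with the Benjamini-Hochberg method over the 15118 genes whose summed count reached 10. Log2 ratios set replicate 1 against replicate 2, after adding 0.5 counts, and fall below 0 where replicate 2 is higher. A gene can have the higher TPM in replicate 2 and still a ratio above 0, since 53 of the 61 genes tested had a higher TPM there and the median log2 TPM ratio of all genes tested was -0.23. The test covers counting error only and compares these libraries, not conditions. In bulk RNA, fewer cells of a type and less RNA per cell cannot be told apart.

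Of the 61 genes with enough counts, 23 (37.7%) differed between the libraries at an adjusted p under 0.05, against 32.1% of all genes tested and 32.7% of protein-coding genes. A total of 16 genes (26.2%) were higher in replicate 2, against 16.9% of all genes and 18.8% of protein-coding genes, and 7 (11.5%) were higher in replicate 1, against 15.1% and 13.8%. The median log2 ratio was -0.12 over the 61 genes and 0.0003 over all genes tested. Among genes whose summed count reached 1000, 12 of 28 members were higher in replicate 2 against 29.9% of such genes, and 4 were higher in replicate 1 against 24.9%. When libraries were scaled by their ERCC counts, the median of all genes moved to -0.74 and 55 of the 61 genes were higher in replicate 2 and none in replicate 1, where 75.1% of all genes differed and 73.8% were higher in replicate 2.

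The inducible Hsp70 pair had the largest ratios toward replicate 2 of the 61 members tested. Expected counts of Hspa1a were 713.37 for replicate 1 and 1796.36 for replicate 2, and those of Hspa1b were 478.57 and 1122.5. By the exact binomial test Hspa1a was 2.49-fold higher in replicate 2 (log2 ratio -1.31, 95% interval -1.44 to -1.19, adjusted p = 6.91e-102) and Hspa1b 2.31-fold higher (log2 ratio -1.21, 95% interval -1.37 to -1.05, adjusted p = 5.47e-56). Of the 61 members tested, these were the 2 at least 2-fold higher in replicate 2 that passed. That class held 2.86% of all genes tested, so the part of the members in it was near that of all genes. The interval of Hspa2 (log2 ratio -0.86, 95% interval -1.28 to -0.46) overlapped those of Hspa1a and Hspa1b.

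Reads of this pair are hard to tell apart. Of the 101-base windows of the transcript, 46.9% of those of Hspa1a also occur in Hspa1b and 49.7% of those of Hspa1b in Hspa1a. The deposited posterior SD, the uncertainty of how shared reads were divided, was 20.36 and 29.55 counts for Hspa1a, small beside the difference between the libraries. Summed over both genes, which removes the division between them, the level was 19.5 TPM in replicate 1 and 56.1 TPM in replicate 2, and the scaled count was 2.42-fold higher in replicate 2.

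Dnajb1, the inducible Hsp40, was 1.52-fold higher in replicate 2, with 1157 counts in replicate 1 and 1782 in replicate 2 (adjusted p = 1.20e-27 by the exact binomial test). Hsph1 was 1.43-fold higher with 197 and 285 counts (adjusted p = 0.000627), Hsp90aa1 1.37-fold (adjusted p = 1.66e-34) and Dnaja1 1.31-fold (adjusted p = 2.06e-32). For Hspd1, which carries the full heat shock element, the log2 ratio was -0.07 (95% interval -0.23 to 0.09), and for Hspe1 it was -0.32 (95% interval -0.71 to 0.06), and neither passed the test. Dnajb6, which carries it too, was higher in replicate 1, with a log2 ratio of 0.13 and an adjusted p of 0.0280, and this call was lost with total-count scaling and with kallisto counts (adjusted p = 0.168 and 0.172). With ERCC scaling the log2 ratio of Dnajb6 was -0.62, where the median of all genes tested was -0.74. Hsph1, given above with TMM scaling, also carries the full element. Any link between the element and these ratios was not tested.

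With TMM scaling, chaperones of the endoplasmic reticulum did not differ as a block. Hspa5 was 1.43-fold higher in replicate 2, with 9188 counts in replicate 1 and 13295 in replicate 2 (adjusted p = 1.17e-152 by the exact binomial test), and Dnajb9 was 1.48-fold higher (adjusted p = 5.45e-25). Hsp90b1 was 1.11-fold higher in replicate 2 (adjusted p = 2.18e-05). Dnajb11 had 783 and 782 counts, Dnajc10 had 858 in both libraries, and Dnajc3, named for its promoter after its values were seen, had 926 and 967, and none of these 3 passed the test. With ERCC scaling Dnajb11 and Dnajc10 passed as higher in replicate 2. Their log2 ratios were then -0.72 and -0.73, where the median of all genes tested was -0.74. With TMM scaling the log2 ratios of the genes that share the stress element were -0.51 for Hspa5, -0.15 for Hsp90b1 and -0.04 for Dnajc3. Any link between the element and these ratios was not tested.

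All 3 Hsp90 genes were higher in replicate 2, Hsp90ab1 by 1.16-fold (adjusted p = 1.61e-17). Of the 9 Hsp70 genes tested 6 (66.7%) were higher in replicate 2, namely Hspa1a, Hspa1b, Hspa2, Hspa5, Hspa8 and Hspa12a. Beside these counts, 16.9% of all genes tested were higher in replicate 2, and 29.9% of those whose summed count reached 1000. Hspa8 was 1.40-fold higher, with 6771.88 and 9597.59 counts (adjusted p = 7.21e-99 by the exact binomial test). Hspa9 was 1.17-fold higher in replicate 1 (adjusted p = 0.00940), and Hspa13 and Hspa14 did not pass. Hspbp1 was 1.41-fold higher in replicate 1 with 162 and 116 counts (adjusted p = 0.0179), against the direction of Hsph1.

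Among DnaJC genes 4 of 26 tested (15.4%) were higher in replicate 1 and 2 (7.69%) in replicate 2, against 15.1% and 16.9% of all genes. Dnajc24, a J protein of diphthamide synthesis, had 55 and 25 counts. It was 2.20-fold higher in replicate 1 (adjusted p = 0.00345 by the exact binomial test). Of the 61 members tested it was the only 1 at least 2-fold higher there that passed, against 3.04% of all genes. With kallisto counts its log2 ratio was 0.43 (adjusted p = 0.308). Dnajc6, the auxilin of clathrin uncoating, was 1.80-fold higher with 52 and 29 counts, Dnajc5 1.12-fold and Dnajc13 1.10-fold. The calls of Dnajc5 and Dnajc13 were lost with kallisto counts (adjusted p = 0.0833 and 0.0594), and that of Dnajc13 also with total-count scaling (adjusted p = 0.0797). With ERCC scaling the calls of Dnajc24 and Dnajc6 were lost (adjusted p = 0.295 and 0.851), and the log2 ratios of Dnajc5 and Dnajc13 turned to -0.58 and -0.60, higher in replicate 2 (adjusted p = 1.56e-64 and 1.36e-37 by the exact binomial test). Dnajc15, a mitochondrial J protein, was 1.57-fold higher in replicate 2 with 62 and 99 counts, and Dnajc8 1.31-fold.

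**Figure D2:**
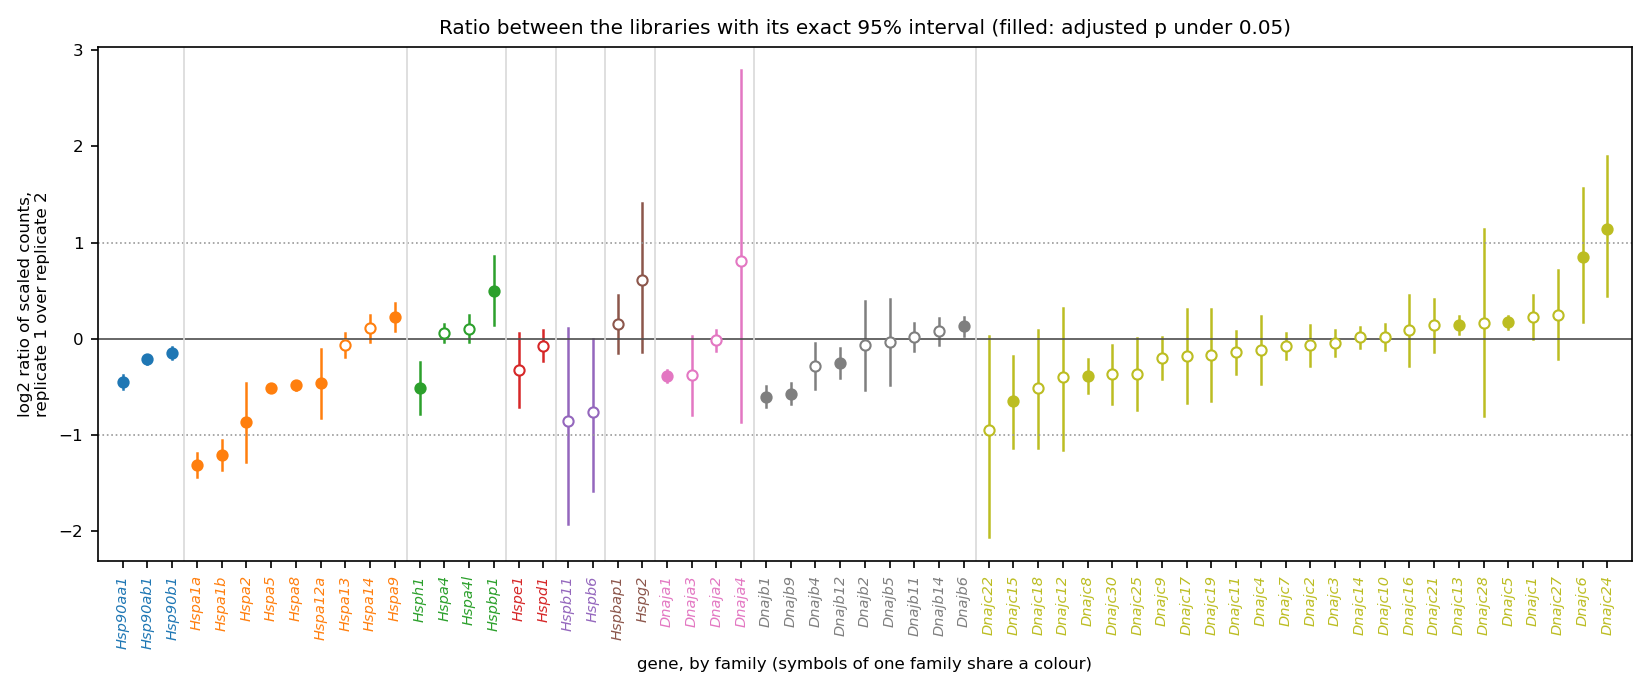
Log2 ratio of scaled counts, replicate 1 over replicate 2, for the 61 genes with enough counts, grouped by family, with exact 95% intervals that cover counting error only and filled points for an adjusted p under 0.05. Hspa1a and Hspa1b lie below -1, Dnajc24 lies above 1, and all 3 Hsp90 genes lie below 0.

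A stricter reading left the inducible pair. Here the spread over all genes was taken as the error, in edgeR's exact test with a common biological coefficient of variation of 0.164. Both libraries were treated as replicates for that estimate. By this test 2 of 61 members passed, Hspa1a (adjusted p = 0.0139) and Hspa1b (adjusted p = 0.0354), against 1.65% of all genes. These 2 genes share sequence, as given above. At an unadjusted p under 0.05 there were 4 of 61 members, with Dnajc24 and Hspa2 besides the pair, against 7.90% of all genes. That was no larger a part than among all genes.

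Markers of other cells also differed between these libraries. Of 7 B cell markers 6 were higher in replicate 2 (summed level 5.80 and 19.8 TPM), and of 6 erythroid markers 5 (50.4 and 124 TPM). All 14 neutrophil markers were higher in replicate 2 as well, with a median log2 ratio of -0.42 and a range from -1.11 (S100a8) to -0.03 (Csf3r). Of all genes tested 16.9% were higher in replicate 2, and of those whose summed count reached 1000 it was 29.9%. At high counts the test, which covers counting error only, passes small ratios. T cell markers summed to 33.8 and 54.7 TPM, of which Cd3d alone held 31.77 and 53.32 TPM, while Lat, at 1.14 and 0.44 TPM, was higher in replicate 1. Monocyte and macrophage markers summed to 84.0 and 100.2 TPM, of which Csf1r alone held 68.59 and 80.53 TPM. Dendritic cell markers summed to 2.44 and 3.16 TPM, with Xcr1 at 0. NK cell markers summed to 10.5 and 8.27 TPM, of which Nkg7 held 10.48 and 8.27 TPM, with Eomes, Gzma and Ncr1 at 0. Platelet markers summed to 17.2 and 13.9 TPM, and of 5 such markers Ppbp, Pf4 and Itga2b were higher in replicate 1 and Gp9 in replicate 2, with a median log2 ratio of 1.03. Their part in the differences of the chaperone genes was not tested.

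Partners of the chaperones were read from lists of known members. Of 62 listed co-chaperones and other chaperones 61 were matched as protein-coding genes and 57 were tested. A total of 9 (15.8%) passed as higher in replicate 2 and 7 (12.3%) as higher in replicate 1, against 16.9% and 15.1% of all genes tested, with a median log2 ratio of -0.04. Of 20 Hsp90 co-chaperones, 3 were higher in replicate 2, namely Stip1, the Hsp70-Hsp90 organising protein (10.42 and 17.11 TPM, log2 ratio -0.47), Ptges3 and Chordc1, and 5 were higher in replicate 1, namely Unc45a (27.1 and 32.43 TPM), Fnip1, Fnip2, Tsc1 and Cdc37l1. Cdc37, which brings kinases to Hsp90, stood at 22.08 and 29.52 TPM and did not pass. Of 6 heat shock factor genes, Hsf1 stood at 13.76 TPM in replicate 1 and 13.44 TPM in replicate 2 (log2 ratio 0.15, not past the test), its binding protein Hsbp1 stood at 16.17 and 27.55 TPM and was higher in replicate 2 (log2 ratio -0.28), and Hsf3 and Hsf4 had a count of 0.

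Among partners of Hsp70, 1 of 12 passed, St13, higher in replicate 2, and the most abundant, Bag6 (114.67 and 130.2 TPM) and the Hsp110 relative Hyou1 of the endoplasmic reticulum (22.96 and 26.69 TPM), did not. Among J proteins with other symbols, Gak, a relative of auxilin, stood at 39.17 and 50.92 TPM and Sec63, of the endoplasmic reticulum, at 11.41 and 14.14 TPM, and neither passed. The TRiC chaperonin and prefoldin genes had 4 of 13 (30.8%) higher in replicate 2 and none in replicate 1, against 16.9% and 15.1% of all genes tested. Pfdn5 (82.1 and 123.24 TPM, log2 ratio -0.31) was among the 4, and Cct4 (36.61 and 46.52 TPM) did not pass. Of other chaperones, the protease Lonp1 (8.89 and 8.25 TPM) was higher in replicate 1 and the mitochondrial Hsp90 relative Trap1 (7.55 and 7.35 TPM) did not pass.

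The authors quantified each library in 2 ways, called RSEM (the tables used above) and kallisto for their column layouts. Of 57 members with a mean of at least 1 TPM by either, 1 lay over 2-fold apart in the same direction in both libraries, against 13.2% of all genes compared and 4.19% of protein-coding genes, and 51 were within 1.5-fold in both libraries. The exception was Hspb11, at 1.43 and 2.76 TPM by RSEM and at 14.2 and 15.6 TPM by kallisto. Kallisto gave 467.368 and 300.052 estimated counts to the transcript Hspb11-205, annotated as a processed transcript, where RSEM gave 0. With kallisto counts Hspb11 was higher in replicate 1 (log2 ratio 0.45), the reverse of its RSEM ratio of -0.85, which did not pass the test.

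**Figure D3:**
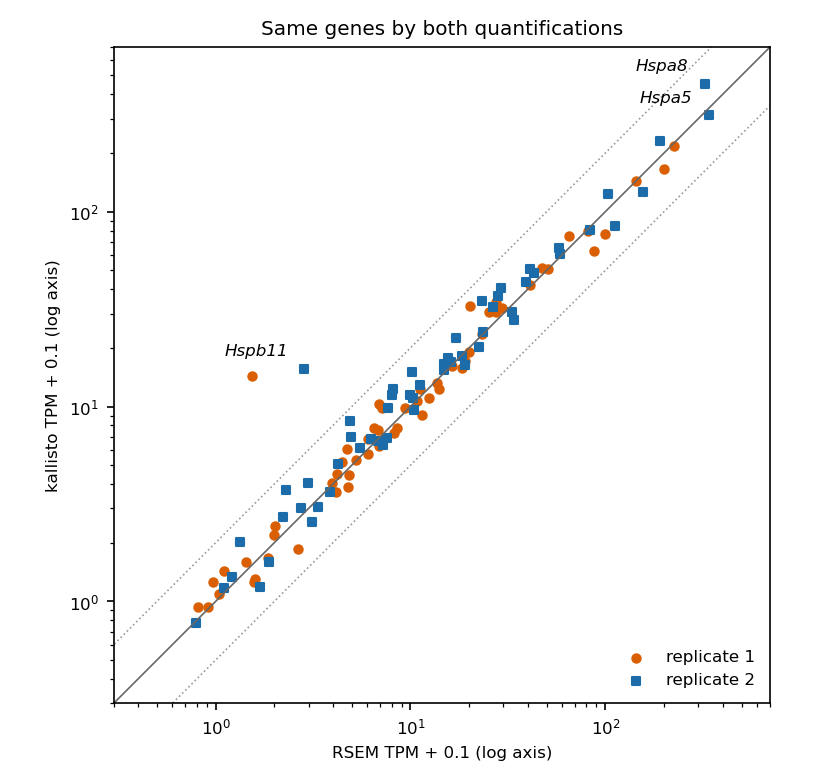
Kallisto TPM against RSEM TPM, each with 0.1 added and on log axes, for the 57 genes compared, with a circle for replicate 1 and a square for replicate 2. The solid line marks equal values and the dotted lines a 2-fold difference, and Hspb11 lies above the upper dotted line in both libraries.

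Hspa8 is a gene for which the split between transcripts depended on the method. It had 10 transcripts, and 64.5% of the 101-base windows of its protein-coding transcripts also occur in transcripts of other genes, the largest share among the 75 genes. RSEM gave 42.7% ± 4.16 of its TPM to Hspa8-202 and kallisto gave that transcript 1.18%, while kallisto gave 33.8% ± 5.30 to Hspa8-201. At the level of the gene kallisto gave 218 and 453 TPM, beside the RSEM values of 223.75 and 325.29 TPM. Counts that were not whole (over 0.05 from a whole number), a sign that reads were divided between genes, were found in 15 members. Of these, 14 were among the 21 members with a protein-coding transcript that holds a window shared with another gene. The exception was Dnaja3, where 16.5% of the windows of the processed transcript Dnaja3-204 also occur in Vasn.

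Much of the RNA of these genes was assigned to transcripts annotated as noncoding. Processed transcripts took 14.4% ± 0.534 of the TPM of the 75 genes by RSEM and 14.4% ± 1.31 by kallisto, against 5.58% ± 0.652 and 7.05% ± 0.785 over all protein-coding genes. Retained introns took 14.5% ± 2.69 by RSEM, against 13.2% ± 2.24 over all protein-coding genes, and by kallisto 14.5% ± 2.22 against 15.6% ± 0.186, so the direction differed between the quantifiers. Protein-coding transcripts took 68.0% ± 2.37 against 77.9% ± 3.27 by RSEM and 68.4% ± 1.399 against 73.7% ± 1.296 by kallisto. These are descriptions, and the quantifiers share the reads.

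**Figure D4:**
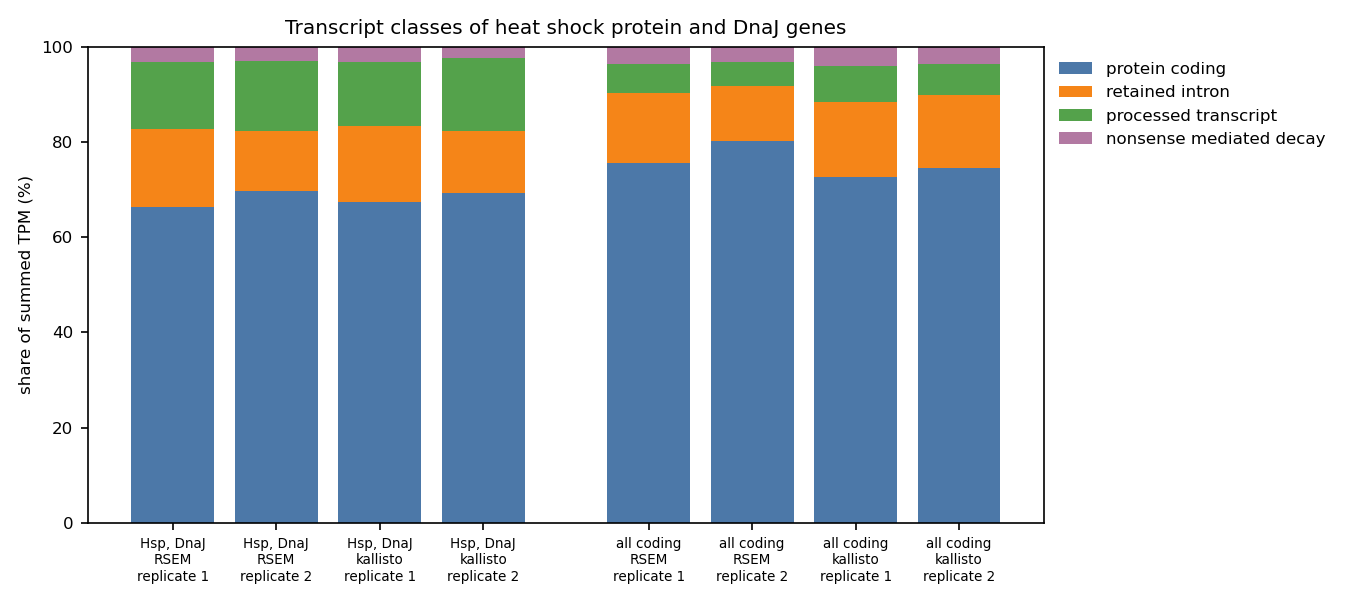
Share of summed TPM by annotated transcript class, in percent, for the 75 genes (left bars) and for all protein-coding genes (right bars), by each quantification and library. The processed transcript part is wider in the left bars than in the right bars in both libraries by both methods.

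Dnaja1 carried a large part of this share. All its processed transcripts together took 91.0% of its TPM by RSEM and 83.9% by kallisto, and its protein-coding transcripts 9.01% and 16.1%. By RSEM the processed transcript Dnaja1-206 took 49.4% ± 0.331 of its TPM, and by kallisto Dnaja1-204, of the same class, led with 32.7% ± 2.44. Kallisto gave Dnaja1-206 24.7%. This transcript has 571 bases, and 59.7% of its 101-base windows also occur in transcripts of other genes. Of 55 genes with a mean of at least 1 TPM, 40 had the same leading transcript by both methods. In 42 the leader was protein-coding by both methods and in 6 it was noncoding by both, among them Hspa4-203, at 48.1% ± 10.4 by RSEM and 36.8% ± 10.2 by kallisto, and Dnajc15-203, at 58.4% ± 3.26 and 63.1% ± 3.10. In other genes 1 coding form led by both methods: Dnajb1-201 took 93.1% ± 2.49 of Dnajb1 by RSEM and 97.6% ± 1.09 by kallisto, and Hspa5-202 took 76.0% ± 0.811 and 77.5% ± 1.79 of Hspa5.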

How the data were processed

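Total RNA was sequenced from 2 libraries of 1 group. Per the notes deposited with the files, all tables used mm10 and GENCODE M21. The authors deposited a gene table and a transcript table, derived from transcriptome alignments, with expected counts, TPM and FPKM, the posterior SD of the count and credibility bounds of TPM. They also deposited a transcript table with estimated counts and TPM derived from the FASTQ file. Which program, version and aligner made them is not given in the sources used here. A directional kit was used, per the labels. The effective length of the gene table is the length minus 100 bases, hence the windows of 101 bases.

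Ratios came from rounded expected counts, with TMM scaling from edgeR 4.0.16 in R 4.3.3, and the exact binomial test, with Clopper-Pearson intervals, from scipy 1.17.1. Alternatives were DESeq2 1.42.0 size factors, total counts, ERCC totals, other count minimums, kallisto counts, edgeR's exact test, FPKM and other thresholds. Counts of 0 allow 3 counts as a limit on counting error alone, because PCR copies without identifiers can repeat a molecule. Genes named with values are the highest of each family, those called with at least 2-fold or among the 5 largest ratios each way, those apart between quantifiers, and the 2 highest of each co-chaperone list. The 75 genes and the lists were chosen with earlier results of these data known. Planned searches of protein motifs were not run.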

Additional observations from a re-analysis of the deposited data

Results flagged for a closer look

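Hspd1-ps3, a processed pseudogene entry of Hsp60 that the symbol rule left out, had expected counts of 10.31 (replicate 1) and 4.66 (replicate 2), above the 3 counts that a count of 0 allows in both libraries. Of 15 pseudogene entries with such symbols, 3 had any count, and this was the 1 above that limit in both. The RSEM level was 0.29 TPM in replicate 1 and 0.15 TPM in replicate 2, where kallisto gave 0.0384 and 0 TPM. Its expected counts were not whole, and 25.5% of the 101-base windows of Hspd1-201 also occur in it.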

How the results depend on the processing

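No paired analysis was possible because there is 1 group. The number of members at 1 TPM or more in both libraries, those apart between quantifiers and the median share of the leading transcript kept within 1.5 times or 1 SD under every alternative run. The median level of the 75 genes was 14.6 TPM when TPM was summed over protein-coding genes alone and 7.36 TPM over members with TPM above 0. Leaving out each library in turn, the median level ranged from 4.76 to 6.72 TPM. Their share of protein-coding TPM was 0.443% by kallisto and 0.498% in expected counts, and the Hspa8 share of Hsp70 TPM was 48.1% by kallisto. The count of 23 members that differed became 55 with ERCC scaling, where 75.1% of all genes differed, 2 with edgeR's exact test and 3 with a 2-fold minimum, and stayed between 23 and 25 under the other alternatives, with a split of 4 higher in replicate 1 and 19 in replicate 2 by kallisto. The median log2 ratio was -0.86 with ERCC scaling and -0.39 in deposited TPM. ERCC scaling reversed 12 of 39 named ratios, which became -0.72 for Dnajb11, -0.62 for Dnajb6, -0.73 for Dnajc10, -0.60 for Dnajc13, -0.73 for Dnajc14, -0.58 for Dnajc5, -0.63 for Hspa14, -0.69 for Hspa4, -0.64 for Hspa4l, -0.52 for Hspa9, -0.59 for Hspbap1 and -0.25 for Hspbp1, and kallisto counts reversed that of Hspb11 to 0.45. With ERCC scaling 9 other named ratios came to pass the test, and 9 calls were lost, 3 with ERCC scaling (Dnajc24, Dnajc6 and Hspbp1, the last with an adjusted p = 0.210 by the exact binomial test), 2 with total counts and 4 with kallisto counts. The kallisto TPM of 12 named members lay over 1 SD from the RSEM mean. The cause was not tested. ERCC counts were 77771 in replicate 1 and 47031 in replicate 2. Depth limits what can be seen, as the 95% interval of a member's log2 ratio reached a median of 0.23 to either side.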
